A study of Mus musculus with 16 samples.

Results

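The acute-phase and fibrinogen genes described here are secreted proteins of the acute-phase response and 1 of its feedback inhibitors, chosen by name: Lrg1, Fga, Fgb, Fgg, Saa1, Saa2, Saa3, Hp, Orm1 and Socs3. Of the 10 names, 9 were matched among the 30277 genes of each expression table, and Saa2 was not analysed here. In males every Kl/Kl library stood above every control library for 8 of the 9, Orm1 being the exception, a separation seen in 15.1% of all genes with at least 1 estimated read in a library. The set was chosen with earlier results of these data known, so this count is a description. For Saa3 it rested on 1 estimated read each in Kl/Kl replicates 3 and 5 and in control replicate 3. Of the 4 with a mean of at least 1 TPM, and so tested across all genes in males, 1, Socs3, was called higher in Kl/Kl kidneys, against 3.74% of all genes tested. Socs3 reached that mean only through its Kl/Kl libraries, since every male control lay under 1 TPM. The call was lost with a filter at 0.1 TPM (limma adjusted p 0.0626) and without male control replicate 3 (limma adjusted p 0.0950).

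The acute-phase response is the change in plasma proteins that follows infection, injury or inflammation. Interleukin-6 and related cytokines act through the shared receptor subunit gp130 on JAK kinases and the transcription factor STAT3. They raise transcription of fibrinogen, serum amyloid A, haptoglobin and other genes. Interleukin-1 and tumour necrosis factor act through NF-kB and C/EBP factors on part of these genes, serum amyloid A among them. The liver is the main source of these proteins, and kidney tubule cells are known to express fibrinogen chains and other members after injury.

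The study measured polyadenylated RNA from whole perfused kidneys of 129S1/SvlmJ mice, onto which the Klotho mutation (Kl) had been bred to make the strain congenic. Kl/Kl mice, homozygous for the recessive mutation, had renal failure, and controls had healthy kidneys. The 5 male Kl/Kl mice were 44 to 47 days old and were set against 3 male controls of 45 to 46 days, all +/Kl. The 4 female Kl/Kl mice were 45 to 54 days old and were set against 4 female controls of 45 to 49 days, all +/+. Control genotype therefore went with sex, and an effect of carrying 1 copy of Kl cannot be told apart from one of sex among controls. The mutation is present in every cell of the Kl/Kl mice and was not confined to a chosen tissue or cell type. The labels do not say that each library came from a separate animal, so p-values measure the spread between these libraries only.

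The values are TPM from 2 tables, 1 for each sex, scaled separately, so levels were not compared between males and females; the Kl/Kl minus control differences, each taken within a table, were. They behave as read numbers divided by the whole genomic span of a gene, introns included. The libraries held an estimated 21.5 to 31.7 M reads each. Bulk kidney RNA cannot tell fewer cells of a type from less RNA per cell. Female Kl/Kl replicate 3 (library S5, 54 days) went against its kidney label: the summed TPM of 6 proximal tubule markers was 0.831, against 413 to 491 in the other female Kl/Kl libraries and 419 to 527 in female controls. In the same library the summed TPM of 5 heart muscle markers was 1836, of 4 airway markers 974 and of 6 adipocyte markers 1193. Male control replicate 3 (library S15) had a proximal tubule sum of 338 TPM and a sum of 85.7 TPM for 4 thick limb and distal tubule markers, against 646 to 683 TPM and 250 to 288 TPM in the other male controls. The differences of the set's genes are therefore given with and without these libraries.

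The 3 fibrinogen genes lie side by side on chromosome 3 (build mm39, Ensembl coordinates of the deposited tables): Fgg at chr3:82915031-82922357 on the plus strand, Fga at chr3:82933383-82940935 on the plus strand and Fgb at chr3:82947448-82957171 on the minus strand. Saa3 (chr7:46361422-46365125, minus strand) and Saa1 (chr7:46389921-46392405, minus strand) are neighbours on chromosome 7. Lrg1 lies at chr17:56426678-56429002 and Socs3 at chr11:117856905-117860874, both on the minus strand. Hp lies at chr8:110301760-110305805 on the minus strand, and Orm1 at chr4:63262797-63266401 on the plus strand.

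The 250 bases before the start of Socs3, Lrg1 and the 3 fibrinogen genes are shown because the results turn on these genes. They are RefSeq sequences of build GRCm38.p6, read 5′ to 3′ on the strand of the gene: Socs3 at chr11:117969367-117969616 (minus), Lrg1 at chr17:56121947-56122196 (minus), Fga at chr3:83025903-83026152 (plus), Fgb at chr3:83049864-83050113 (minus) and Fgg at chr3:83007474-83007723 (plus). Capitals mark every match, on either strand, to 4 motifs: the STAT3 palindrome TTCNNNGAA, the interleukin-6 response element core CTGGGAA, the C/EBP motif TTGCNNAA and the NF-kB motif, which is GGG, then NNN, then TTCC, where N is any base.
Socs3: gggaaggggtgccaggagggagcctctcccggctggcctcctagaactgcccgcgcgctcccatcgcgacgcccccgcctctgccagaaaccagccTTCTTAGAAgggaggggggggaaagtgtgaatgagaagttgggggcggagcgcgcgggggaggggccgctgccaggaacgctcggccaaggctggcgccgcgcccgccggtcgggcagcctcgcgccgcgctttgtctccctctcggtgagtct
Lrg1: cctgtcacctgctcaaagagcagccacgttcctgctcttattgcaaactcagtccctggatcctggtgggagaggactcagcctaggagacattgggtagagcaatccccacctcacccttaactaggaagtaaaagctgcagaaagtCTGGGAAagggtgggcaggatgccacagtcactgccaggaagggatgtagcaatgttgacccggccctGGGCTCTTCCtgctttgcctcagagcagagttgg
Fga: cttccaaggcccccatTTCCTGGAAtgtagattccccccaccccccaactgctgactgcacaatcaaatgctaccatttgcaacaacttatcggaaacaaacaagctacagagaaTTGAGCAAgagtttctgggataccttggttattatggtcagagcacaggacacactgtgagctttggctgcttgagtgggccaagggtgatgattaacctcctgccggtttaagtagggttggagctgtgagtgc
Fgb: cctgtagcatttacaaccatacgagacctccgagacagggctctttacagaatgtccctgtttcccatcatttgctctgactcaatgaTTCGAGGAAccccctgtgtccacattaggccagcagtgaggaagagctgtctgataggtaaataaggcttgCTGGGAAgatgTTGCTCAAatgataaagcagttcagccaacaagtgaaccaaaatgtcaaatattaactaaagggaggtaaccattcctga
Fgg: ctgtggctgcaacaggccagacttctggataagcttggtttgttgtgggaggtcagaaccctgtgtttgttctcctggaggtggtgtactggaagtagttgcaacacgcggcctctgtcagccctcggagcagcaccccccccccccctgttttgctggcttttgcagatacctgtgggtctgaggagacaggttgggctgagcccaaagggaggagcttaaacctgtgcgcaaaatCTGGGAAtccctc

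In the Socs3 sequence the capitals are 1 STAT3 palindrome, 154 to 146 bases before the start. The Lrg1 sequence holds the interleukin-6 core 102 to 96 bases and the NF-kB motif 34 to 25 bases before the start. The Fga sequence holds the STAT3 palindrome 234 to 226 bases before the start and a C/EBP match, on the other strand, at 135 to 128 bases. The Fgb sequence holds 3 of the motifs, with the STAT3 palindrome at 162 to 154, the interleukin-6 core at 91 to 85 and the C/EBP motif at 80 to 73 bases before the start. The Fgg sequence holds the interleukin-6 core 13 to 7 bases before the start. No match overlapped another, although the first and second motif can share bases. Of the 10 names, 8 had a RefSeq promoter entry, Hp and Orm1 being the others. The STAT3 palindrome was found in 3 of these 8 (Fga, Fgb and Socs3) and in 7.18% of all 27025 promoters of the same length. The interleukin-6 core was found in 3 of 8 (Fgb, Fgg and Lrg1) and in 9.08% of all promoters, the C/EBP motif in 5 of 8 (Fga, Fgb, Saa1, Saa2 and Saa3) and in 9.55%, and the NF-kB motif in 1 of 8 (Lrg1) and in 4.60%. The Saa1 and Saa2 matches have the same bases, at 182 to 175 and 183 to 176 bases before the start, so they are not independent. A match is a description of these letters and does not show that a factor binds there.

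Socs3, the feedback inhibitor that STAT3 induces and that blocks gp130 signalling, was higher in Kl/Kl males. It had 4.74, 2.14, 1.29, 5.36 and 1.56 TPM in male Kl/Kl replicates 1 to 5, against 0.791, 0.447 and 0.260 TPM in male control replicates 1 to 3. The groups did not overlap, and Kl/Kl replicates 1 and 4 were the highest. The mean was 3.02 ± 1.90 TPM in male Kl/Kl kidneys (SD, n = 5) and 0.499 ± 0.269 TPM in male controls (SD, n = 3), a ratio of 6.05, or 4.88 without male control replicate 3. On the log2(TPM + 1) scale the difference was 1.31 (SE 0.33), with an adjusted p of 0.0431 from limma with Benjamini-Hochberg adjustment over 8439 genes. The median difference of all these genes was 0.19, and 0.05 after median-of-ratios scaling, under which that of Socs3 was 1.23 with an adjusted p of 0.0378. Without male control replicate 3 the difference was 1.19 (SE 0.41) and the adjusted p from limma was 0.0950. With the filter at a mean of 0.1 TPM in place of 1 TPM the limma adjusted p was 0.0626, and 0 of the 7 genes of the set then tested were called. The call was also lost without male control replicate 1, male control replicate 2 or Kl/Kl replicate 1, 2 or 4, each left out alone, and was kept without Kl/Kl replicate 3 or 5, with adjusted p-values from limma of 0.0338 to 0.102 over the 8.

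In females Socs3 had 1.74, 2.35, 0.349 and 1.57 TPM in Kl/Kl replicates 1 to 4, against 3.24, 0.655, 0.813 and 0.560 TPM in control replicates 1 to 4. The groups overlapped, because control replicate 1 was the highest of the 8 and Kl/Kl replicate 3 the lowest. The difference on the log2(TPM + 1) scale was 0.17 (SE 0.40, limma adjusted p 0.820), and 0.44 (SE 0.32, limma adjusted p 0.480) without female Kl/Kl replicate 3. Without that library, every female Kl/Kl value stood above 3 of the 4 control values. Control replicate 1 also had the highest summed TPM of 7 neutrophil markers among female controls, 1.72 against 0.0395 to 0.237 in the other 3. The sum was 0.409, 1.27, 2.96 and 0.599 in female Kl/Kl replicates 1 to 4. The part of neutrophils in the Socs3 value was not tested.

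Lrg1, a secreted leucine-rich glycoprotein that binds the TGF-beta co-receptor endoglin and is induced by interleukin-6, separated Kl/Kl from control libraries in both sexes. It had 12.7, 3.07, 3.95, 21.9 and 4.00 TPM in male Kl/Kl replicates 1 to 5, against 2.29, 2.48 and 2.05 TPM in male controls. Kl/Kl replicates 4 and 1 were far above the other 3 Kl/Kl males, which lay between 3.07 and 4.00 TPM, just above the controls. The ratio of means was 4.01, or 3.82 without male control replicate 3 and 2.61 without Kl/Kl replicate 4, and the log2(TPM + 1) difference was 1.28 (SE 0.50, limma adjusted p 0.138), which did not pass the threshold of 0.05. Without male control replicate 3 the difference was 1.23 (SE 0.65, limma adjusted p 0.230).

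In females Lrg1 had 2.84, 3.58, 3.21 and 5.52 TPM in Kl/Kl replicates 1 to 4, against 1.87, 1.53, 1.48 and 1.26 TPM in control replicates 1 to 4. The groups did not overlap, and Kl/Kl replicate 3 lay within the range of the other Kl/Kl libraries. The mean was 3.79 ± 1.19 TPM in female Kl/Kl kidneys and 1.54 ± 0.26 TPM in female controls (SD, n = 4 each), a ratio of 2.47. The log2(TPM + 1) difference was 0.89 (SE 0.18) with an unadjusted p of 0.00129 and a limma adjusted p of 0.729. Without female Kl/Kl replicate 3 it was 0.94 (SE 0.17, limma adjusted p 0.0852). The summed TPM of 8 macrophage markers was 40.6 in Kl/Kl replicate 4, the highest for Lrg1, and 469 in Kl/Kl replicate 3, against 11.9 and 19.9 in the other female Kl/Kl libraries and 9.26 to 17.4 in female controls; their part was not tested. With limma's array weights, which give unlike libraries less influence, the difference was 1.00 and the adjusted p was 0.0276. Over the alternatives tried the adjusted p ran from 0.0276 to 0.870.

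**Figure D1:**
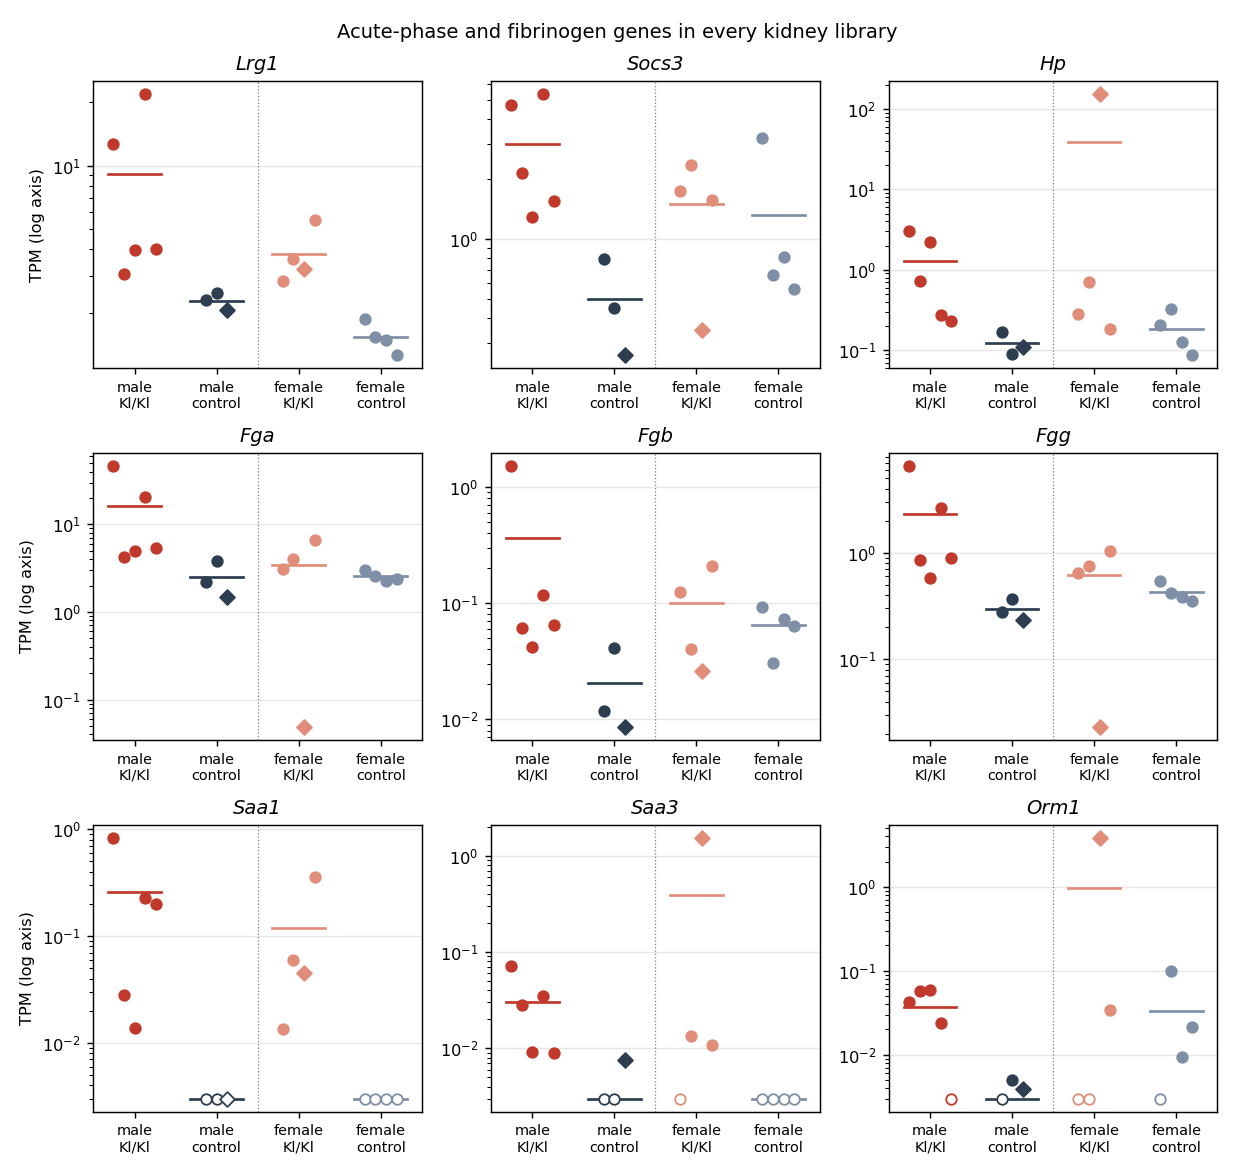
TPM (log axis) of the 9 genes in every library, with male Kl/Kl, male control, female Kl/Kl and female control groups from left to right. Circles are libraries in replicate order, diamonds are male control replicate 3 and female Kl/Kl replicate 3, lines are group means, and open symbols stand for values under 0.003 TPM drawn at 0.003. Male Kl/Kl replicates 1 and 4 are the 2 highest of the male Kl/Kl libraries for 7 of the 9 genes, on few reads for Saa1 and Saa3, and Hp reaches 153 TPM in female Kl/Kl replicate 3.

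The fibrinogen genes encode the Aα chain (Fga), the Bβ chain (Fgb) and the γ chain (Fgg) of the clotting protein, which is assembled from a pair of each chain. Fga had 46.5, 4.27, 5.01, 20.6 and 5.34 TPM in male Kl/Kl replicates 1 to 5, against 2.21, 3.85 and 1.47 TPM in male controls. The groups did not overlap, but the lowest Kl/Kl male (4.27 TPM) was close to the highest control (3.85 TPM). The mean was 16.3 ± 18.2 TPM in male Kl/Kl kidneys (SD, n = 5) and 2.51 ± 1.22 TPM in male controls (SD, n = 3), a ratio of 6.50. It was 5.39 without male control replicate 3 and 3.50 without Kl/Kl replicate 1. The log2(TPM + 1) difference was 1.77 (SE 0.65, limma adjusted p 0.120), and 1.55 (SE 0.85, limma adjusted p 0.241) without male control replicate 3.

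Fgg had 6.55, 0.855, 0.576, 2.61 and 0.886 TPM in male Kl/Kl replicates 1 to 5, against 0.280, 0.365 and 0.236 TPM in male controls. Kl/Kl replicates 1 and 4 were again the highest and the groups did not overlap. The ratio of means was 7.82, or 7.12 without male control replicate 3 and 4.20 without Kl/Kl replicate 1, and the log2(TPM + 1) difference was 1.08 (SE 0.43, limma adjusted p 0.141), or 1.04 (SE 0.56, limma adjusted p 0.235) without male control replicate 3. Fgb had 1.52, 0.0612, 0.0418, 0.117 and 0.0642 TPM in male Kl/Kl replicates 1 to 5, against 0.0118, 0.0410 and 0.00860 TPM in male controls. Fgb in Kl/Kl replicate 1 was far above every other library, and the lowest Kl/Kl male lay at 0.0418 TPM, against 0.0410 TPM for the highest control, with 12 and 11 estimated reads behind these values. The ratio of means was 17.6, but 3.47 without Kl/Kl replicate 1, 35.3 without male control replicate 2 and 13.7 without male control replicate 3. The median was 0.0642 TPM in male Kl/Kl kidneys and 0.0118 TPM in male controls.

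In females Fga had 3.10, 4.07, 0.0487 and 6.55 TPM in Kl/Kl replicates 1 to 4, against 3.04, 2.60, 2.26 and 2.39 TPM in control replicates 1 to 4. Fgg followed with 0.650, 0.757, 0.0232 and 1.04 TPM in Kl/Kl replicates 1 to 4, against 0.544, 0.417, 0.385 and 0.356 TPM in controls. For both genes Kl/Kl replicate 3 was the lowest of the 8 female libraries and the other 3 Kl/Kl libraries stood above every control. With that library the log2(TPM + 1) difference of Fga was 0.01 (SE 0.55, limma adjusted p 0.995), and without it 0.60 (SE 0.19, limma adjusted p 0.159). Fgg was below the mean of 1 TPM needed for the fit in females. Its difference was 0.14 with all libraries (exact two-sided permutation p = 0.629) and 0.35 without Kl/Kl replicate 3 (exact permutation p = 0.0571, the smallest possible with 3 against 4).

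Fgb in females had 0.125, 0.0405, 0.0262 and 0.209 TPM in Kl/Kl replicates 1 to 4, against 0.0933, 0.0306, 0.0734 and 0.0641 TPM in control replicates 1 to 4. These groups overlapped with and without Kl/Kl replicate 3. Kl/Kl replicate 4 was the highest female library for all 3 chains.

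To set the chains side by side, estimated reads were divided by exon length, since introns make up most of each span. On this scale of reads per kb of exon per M reads, the level of Fga in male Kl/Kl kidneys was 10.4 to 109 (median 12.9, n = 5), against 4.98 and 8.78 in the male controls other than replicate 3. The level of Fgg was 2.07 to 21.4 (median 2.97) in male Kl/Kl kidneys, against 0.879 and 1.16 in these 2 controls. The level of Fgb was 0.110 to 3.61 (median 0.157) in male Kl/Kl kidneys, against 0.0270 and 0.0949. Fga exceeded Fgg and Fgg exceeded Fgb in each of these libraries, so the chains were far from equal in RNA.

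Across the 14 libraries other than S5 and S15, the ratio of Fga to Fgg on the exon scale was 3.42 to 7.57 (median 4.49). The ratio of Fga to Fgb was 24.3 to 184 (median 75.1). The ratio of Fga to Fgg was 3.58 to 6.23 in male Kl/Kl kidneys and 5.66 and 7.57 in male controls. It was 3.42 to 4.51 in female Kl/Kl kidneys and 4.00 to 4.82 in female controls. The ratios in Kl/Kl and control libraries overlapped in each sex, while the levels of Fga and Fgg in these 14 libraries did not. As a description over the same 14 libraries, centred on the mean of each table, log2(TPM + 1) of Fga and Fgg had a Pearson r of 0.981, and Lrg1 and Fga one of 0.892. The points share tables and libraries, and Kl/Kl males 1 and 4 lie at one end.

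**Figure D2:**
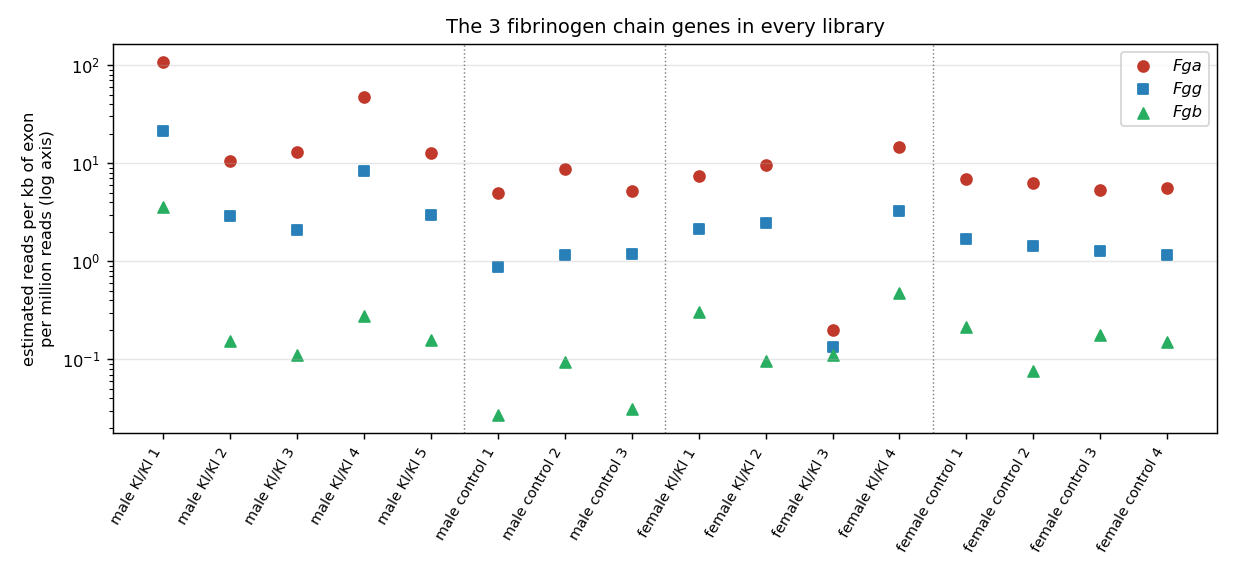
Estimated reads per kb of exon per M reads (log axis) for Fga (circles), Fgg (squares) and Fgb (triangles) in each of the 16 libraries, Kl/Kl before control within each sex. Fga lies above Fgg and Fgg above Fgb throughout. In female Kl/Kl replicate 3 the 3 are close together, with Fga and Fgg at their lowest and Fgb within the range of the other libraries.

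The serum amyloid A genes encode lipoprotein-bound proteins that rise steeply in acute inflammation, Saa1 being a liver form and Saa3 a form made outside the liver in mice. Saa1 had 0.834, 0.0282, 0.0137, 0.228 and 0.199 TPM in male Kl/Kl replicates 1 to 5, or 47, 2, 1, 13 and 15 estimated reads, and was listed at the floor of the table, 0 reads, in all 3 male controls. In females it had 0.0136, 0.0595, 0.0456 and 0.359 TPM in Kl/Kl replicates 1 to 4, or 1, 3, 4 and 22 estimated reads, and stood at the floor in all 4 controls. Saa1 was thus detected in all 9 Kl/Kl libraries and in none of the 7 controls, with 108 estimated reads in all. No ratio is given against libraries at the floor. Reads that match Saa1 and its near-identical neighbour Saa2 alike may have been split or dropped, so the Saa1 level is uncertain.

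Saa3 had 6, 3, 1, 3 and 1 estimated reads in male Kl/Kl replicates 1 to 5, against 0, 0 and 1 in male controls. On the TPM scale the lowest Kl/Kl male (0.00888 TPM) was close to control replicate 3 (0.00753 TPM). In females Saa3 had 0, 1, 202 and 1 estimated reads in Kl/Kl replicates 1 to 4 and 0 in each of the 4 controls. Outside female Kl/Kl replicate 3 no library exceeded 6 reads, which leaves levels near the limit of detection.

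Haptoglobin (Hp), the plasma protein that binds free haemoglobin, had 3.00, 0.726, 2.20, 0.270 and 0.228 TPM in male Kl/Kl replicates 1 to 5, against 0.170, 0.0895 and 0.110 TPM in male controls. The groups did not overlap, and the ratio of means was 10.4, or 9.88 without male control replicate 3 and 6.93 without Kl/Kl replicate 1. Replicates 1 and 3 were the highest and replicate 4, the highest for Lrg1 and Socs3, was near the controls. The summed TPM of 6 adipocyte markers, a cell type that also expresses Hp, was 42.0, 26.9, 31.9, 13.0 and 9.66 in male Kl/Kl replicates 1 to 5, against 7.75 to 12.9 in male controls, with the same 3 Kl/Kl libraries the highest. Its part in the Hp values was not tested. In females Hp had 0.284, 0.706, 153 and 0.181 TPM in Kl/Kl replicates 1 to 4, against 0.206, 0.321, 0.126 and 0.0867 TPM in control replicates 1 to 4. The ratio of female means was 208 with Kl/Kl replicate 3 and 2.11 without it, and the groups overlapped in both cases.

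Orm1, the acid glycoprotein that binds drugs and lipids in plasma, had 3.4, 6, 6.2, 2 and 0 estimated reads in male Kl/Kl replicates 1 to 5, against 0, 0.5 and 0.5 in male controls. In females it had 0, 0, 489 and 3 estimated reads in Kl/Kl replicates 1 to 4, against 0, 9.8, 1 and 2 in controls. It was the 1 gene of the 9 whose male groups overlapped, Kl/Kl replicate 5 standing at 0 reads. Orm1 has the close relatives Orm2 and Orm3, and reads that match several of them make its level uncertain. Without female Kl/Kl replicate 3 the female mean was 0.0113 TPM in Kl/Kl kidneys and 0.0330 TPM in controls. The values of Saa3, Hp and Orm1 in that library stood beside its heart muscle sum of 1836 TPM, its airway sum of 974 TPM and its adipocyte sum of 1193 TPM, and the part of such tissue in them was not tested.

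Over the set, 4 of the 9 genes passed the filter of a mean of at least 1 TPM in males (Lrg1, Fga, Fgg and Socs3), and Fgg and Socs3 passed only through their Kl/Kl level, since every control lay under 1 TPM. Of the 4, limma called 1, Socs3, higher in Kl/Kl males, where 3.74% of all genes tested were called higher. Without male control replicate 3 it called 0 of 4, with 3.16% of all genes called higher; Socs3 alone of the 4 then had an unadjusted p under 0.05. In females 4 of the 9 passed (Lrg1, Fga, Hp and Socs3), Hp only through Kl/Kl replicate 3. Limma called 0 of the 4 higher, against 0% of all genes tested, and voom on the estimated reads also called 0 genes. Before adjustment, the p of 1 member (Lrg1) and of 414 genes in all was under 0.05. Without female Kl/Kl replicate 3, 3 members were tested and 0 called, against 0.0572% of all genes called higher; Lrg1 and Fga had an unadjusted p under 0.05.

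**Figure D3:**
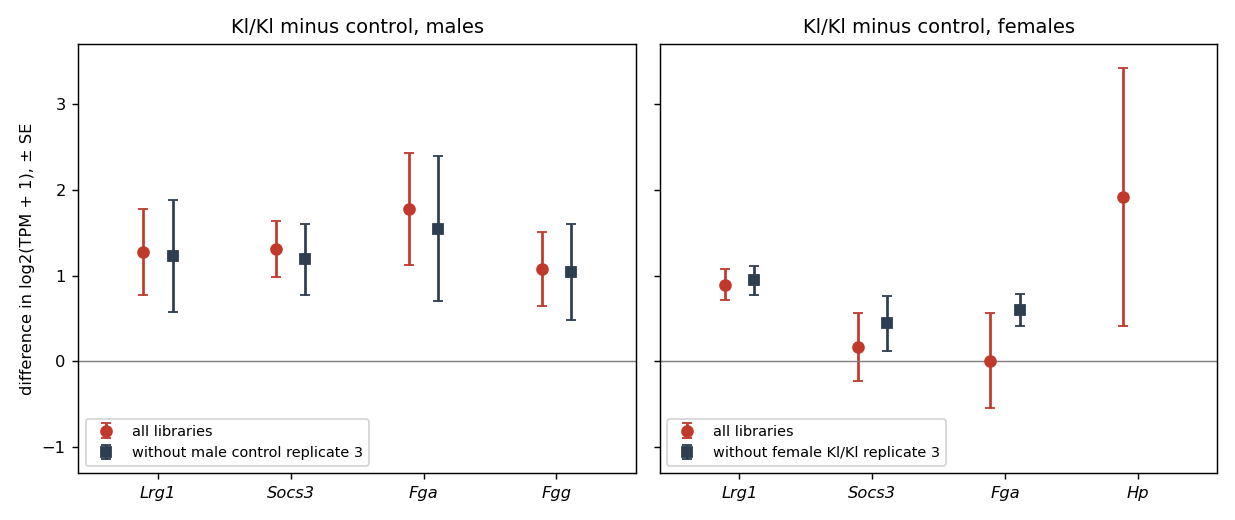
Kl/Kl minus control difference in log2(TPM + 1) with its standard error from limma, for the genes that passed the filter, in males (left) and females (right). Circles use all libraries and squares leave out male control replicate 3 or female Kl/Kl replicate 3. Socs3 in males is the 1 difference past the adjusted threshold, at 1.31 with all libraries, and the female value of Fga is 0.60 without Kl/Kl replicate 3 and 0.01 with it.

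By complete separation, every male Kl/Kl library was above every male control for 8 of the 9 genes, against the 15.1% of genes given above. For Saa3 the closest values were 0.00888 and 0.00753 TPM, each 1 estimated read. The counts are a description, since the set was chosen with earlier results of these data known. Without male control replicate 3 the count was again 8, against 17.1% of genes. The exact permutation p of each of the 8 was 0.0357, the smallest possible with 5 against 3, and 0.0952 without that control, the smallest possible with 5 against 2. In females the count was 2, Lrg1 and Saa1, against 3.21% of genes. Without female Kl/Kl replicate 3 it was 4, Lrg1, Fga, Fgg and Saa1, against 8.55% of genes. The exact permutation p was 0.0286 for each of the 2, the smallest possible with 4 against 4, and 0.0571 for each of the 4.

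Whether the change differed between the sexes was tested as a difference of the 2 within-table differences. Control genotype (+/Kl in males, +/+ in females) and table went with sex, so this contrast cannot tell them apart from sex. Limma called 0 of 5 members, against 0.211% of all genes tested, with 0 of the 5 at an unadjusted p under 0.05. Without S5 and S15 it called 0 of 4, against 3.89% of all genes. The male minus female difference of Socs3 was 1.14 (SE 0.56, limma adjusted p 0.542) with all libraries and 0.75 (SE 0.58, limma adjusted p 0.491) without these 2. That of Fga was 1.77 (SE 0.96, limma adjusted p 0.542) and 0.95 (SE 0.92, limma adjusted p 0.584). These intervals are wide, and the test does not show that the sexes responded alike.

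Among Kl/Kl males the spread was large. Replicates 1 and 4 were the 2 highest for 7 of the 9 genes, all but Hp and Orm1, and the highest Kl/Kl male was 7.12 times the lowest for Lrg1, 10.9 times for Fga and 36.3 times for Fgb, but 4.16 times for Socs3. The place of replicate 4 is uncertain for Saa1, with 13 estimated reads against 15 in replicate 5, and for Saa3, with 3 against 3 in replicate 2. The summed TPM of 7 neutrophil markers was 6.67, 1.30, 0.878, 3.29 and 0.856 in male Kl/Kl replicates 1 to 5, with replicates 1 and 4 the highest here too, against 0.0759 to 0.269 in male controls. S100a8, the most abundant of them, reached 3.58 TPM in a male library. The summed TPM of 8 macrophage markers was 11.9 to 24.6 in male Kl/Kl kidneys, against 7.02 to 12.9 in male controls, with the highest value in Kl/Kl replicate 2. Of these, Lyz2 and Cd68 were called higher in Kl/Kl males by limma (adjusted p 0.00326 and 0.0431), and Cd68 was not without male control replicate 3 (adjusted p 0.0674). Csf1r of the same list went the other way, with a log2(TPM + 1) difference of −0.56 (limma adjusted p 0.0826), and voom called it lower. Its difference was −0.68 (limma adjusted p 0.0503) without male control replicate 3. Of the 6 proximal tubule markers, Slc22a6, Slc7a13 and Slc22a12 fell in Kl/Kl males by limma, with and without that control. The part of these cells in the results was not tested.

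Markers of hepatocytes, the main source of these proteins in the body, were low in every library. The sum over 8 of 9 listed markers was 0.653 to 1.12 TPM in male Kl/Kl kidneys, against 0.230 to 0.624 TPM in male controls. In females it was 0.550 to 1.33 TPM in Kl/Kl kidneys, or 0.550 to 1.10 TPM without Kl/Kl replicate 3, against 0.894 to 1.67 TPM in controls. The highest value of a hepatocyte marker in any library was 0.769 TPM, and Cps1 stayed under 1 read in every male library. In males every Kl/Kl library stood above every control for this sum, with Kl/Kl replicates 1 and 4 the highest. The part of hepatocyte RNA in the values of the set was not tested.

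Upstream of these genes, the interleukin-6 family ligands and receptors gave no call. Of 12 listed genes 2 passed the filter in males, with a median log2 difference of 0.35 against 0.19 for all genes, and 0.045 against 0.01 without male control replicate 3. Limma called 0 of the 2 and 0 had an unadjusted p under 0.05. By voom on the estimated reads 0 were called as well. The 2 were Il6st and Lifr, so no ligand and none of the other receptors was tested. Among receptors under the filter, the lowest Kl/Kl and highest control values in males were 395 and 282 estimated reads for Osmr. They were 295 and 199 for Il6ra, 239 and 146 for Cntfr, and 926 and 1889 for Il11ra1, whose groups overlapped. The ligand Clcf1 had 217, 269, 184, 383 and 345 estimated reads in male Kl/Kl replicates 1 to 5, against 93, 101 and 184 in male controls. Il6, Il11 and Osm had at most 7 in a male library, and the groups overlapped for Lif and Cntf. These reads are not scaled for depth, and on the TPM scale 15.1% of all genes separated the male groups in this direction. Il6st, which encodes gp130, averaged 5.22 ± 0.89 TPM in male Kl/Kl kidneys (n = 5) and 4.38 ± 2.51 TPM in male controls (SD, n = 3), with a limma adjusted p of 0.488. Without male control replicate 3 the control mean was 5.82 TPM and the log2(TPM + 1) difference turned to −0.14. Of the JAK kinases, STAT3 and acute-phase transcription factors, 7 of 9 were tested in males and limma called 0, with 2 at an unadjusted p under 0.05. Voom on the estimated reads called 1 of the 7, Stat3, higher. The limma median was 0.41, and −0.03 against 0.01 for all genes without male control replicate 3. Cebpb, a C/EBP factor that acts on acute-phase genes, averaged 48.4 ± 28.9 TPM in male Kl/Kl kidneys (n = 5) and 22.7 ± 6.9 TPM in male controls (SD, n = 3), with a limma adjusted p of 0.259, and 0.434 without male control replicate 3.

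Other STAT3 target genes gave 0 calls by limma among 5 tested of 9 in males, with 4 at an unadjusted p under 0.05 and a median difference of 0.95. Voom on the estimated reads called 2 of the 5 higher, Myc and Mcl1. Without male control replicate 3 their median was 0.66, against 0.01 for all genes, and 2 had an unadjusted p under 0.05. Mcl1, an inhibitor of apoptosis, averaged 59.6 ± 15.1 TPM in male Kl/Kl kidneys (n = 5) and 30.3 ± 11.7 TPM in male controls (SD, n = 3), with a limma adjusted p of 0.0679. Junb, a subunit of AP-1, averaged 9.82 ± 4.57 TPM in male Kl/Kl kidneys and 4.62 ± 1.46 TPM in male controls, with a limma adjusted p of 0.119. Of the interleukin-1, tumour necrosis factor and NF-kB genes, 4 of 13 were tested in males. Limma called 0 and 1 had an unadjusted p under 0.05. By voom 0 were called. Their median was 0.33, and 0.13 without male control replicate 3. Nfkbia, the inhibitor that NF-kB itself induces, averaged 23.6 ± 8.5 TPM in male Kl/Kl kidneys and 10.9 ± 1.1 TPM in male controls, with a limma adjusted p of 0.0821. It was called in 1 of the 8 fits that left out a male library, with an adjusted p of 0.0207 from limma.

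Other positive acute-phase proteins, those that rise in the response, had 7 of 21 genes tested in males, of which 3 rose and 0 fell. The 3 that rose (C3, Lcn2 and Serpina3n), and Trf, Serpina6 and Tlr2 of the lists that follow, had every male control under 1 TPM and so passed the filter only through their Kl/Kl level. The counts and medians of these lists are therefore a description. The median difference of the other positive acute-phase genes was 1.04, and 0.98 without male control replicate 3, when 2 rose. Voom on the estimated reads called 4 of the 7 higher, Cp besides C3, Lcn2 and Serpina3n. C3, the central complement component, averaged 24.6 ± 22.7 TPM in male Kl/Kl kidneys (n = 5) and 0.636 ± 0.367 TPM in male controls (SD, n = 3), a log2(TPM + 1) difference of 3.65 (SE 0.49, limma adjusted p 0.00167). Lcn2, the iron-chelator carrier released by injured tubules and by neutrophils, averaged 4.93 ± 1.95 TPM in male Kl/Kl kidneys and 0.582 ± 0.162 TPM in male controls, with a limma adjusted p of 0.00191. Both were called in each of the 8 fits that left out a male library. Serpina3n, a protease inhibitor, averaged 4.04 ± 3.62 TPM in male Kl/Kl kidneys and 0.211 ± 0.10 TPM in male controls, with a limma adjusted p of 0.0391, and 0.0856 without male control replicate 3. It was called in 4 of these 8 fits.

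Negative acute-phase proteins, those that fall in the plasma during the response, gave 2 that rose and 1 that fell among 4 tested of 8 in males, with and without male control replicate 3. Trf, the iron carrier transferrin, averaged 5.77 ± 2.13 TPM in male Kl/Kl kidneys (n = 5) and 0.543 ± 0.298 TPM in male controls (SD, n = 3), with a limma adjusted p of 0.000757. Serpina6, corticosteroid-binding globulin, averaged 26.8 ± 27.7 TPM in male Kl/Kl kidneys and 0.371 ± 0.159 TPM in male controls, with a limma adjusted p of 0.00440. Ttr, the carrier of thyroxine and retinol-binding protein, fell to 2.96 ± 0.56 TPM in male Kl/Kl kidneys, against 19.9 ± 6.7 TPM in male controls, with a limma adjusted p of 9.11e-05. Voom on the estimated reads called 3 higher, Apoa1 besides Trf and Serpina6, and Ttr lower. Those that rose therefore went against the direction that the list's name gives.

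**Figure D4:**
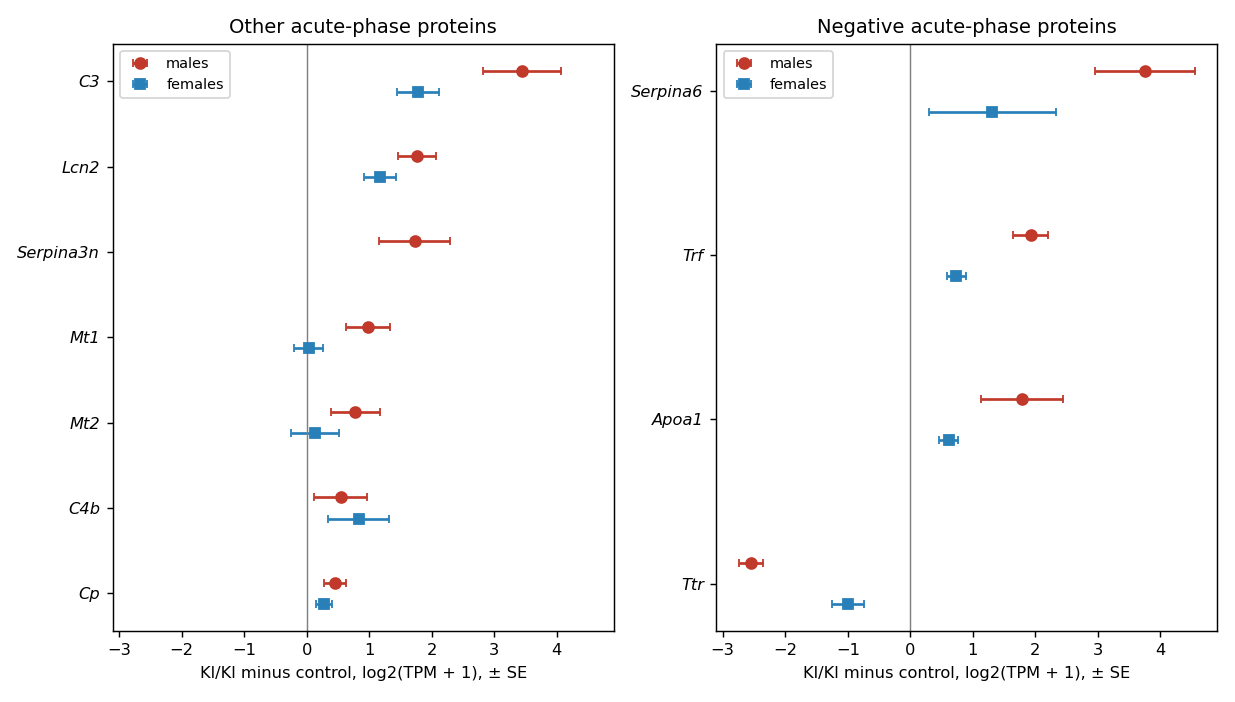
Kl/Kl minus control difference in log2(TPM + 1) with its standard error from limma for the other positive acute-phase genes (left) and the negative acute-phase genes (right) that passed the filter, in males (circles) without control replicate 3 and in females (squares) without Kl/Kl replicate 3. C3 is at 3.45 in males and 1.78 in females, and Ttr at −2.55 in males and −0.997 in females, where no list gene passed the adjusted threshold.

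Of the coagulation and fibrinolysis genes, 7 of 19 were tested in males, and 1 rose and 1 fell. Plat, the tissue plasminogen activator that starts the breakdown of fibrin, averaged 6.05 ± 1.86 TPM in male Kl/Kl kidneys (n = 5) and 2.46 ± 0.73 TPM in male controls (SD, n = 3), with a limma adjusted p of 0.0286, and 0.0527 without male control replicate 3. Serpinf2, the plasmin inhibitor, fell to 13.8 ± 4.8 TPM in male Kl/Kl kidneys, against 46.0 ± 18.1 TPM in male controls, with a limma adjusted p of 0.0222. Each was called in 5 of the 8 fits that left out a male library. Of the receptors that bind the proteins encoded by the set, 6 of 15 were tested in males and 1 rose by limma: Tlr2, a pattern receptor that also binds serum amyloid A, averaged 1.45 ± 0.35 TPM in male Kl/Kl kidneys and 0.493 ± 0.184 TPM in male controls, with a limma adjusted p of 0.0217, and 0.0338 without male control replicate 3. Voom on the estimated reads called 3 of the 6 higher, Tgfbr1, Tlr2 and Icam1.

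In females limma called 0 genes of these 8 lists, with or without Kl/Kl replicate 3, and voom on the estimated reads of all libraries also called 0. Before adjustment, with all libraries, 2 other positive acute-phase genes, 2 negative ones, 1 coagulation gene and 2 receptors had a limma p under 0.05. Without that library the median difference was 0.55 for 6 other positive acute-phase genes and 0.68 for 4 negative ones, against 0.06 for all genes tested. C3 averaged 17.9 ± 9.6 TPM in the remaining female Kl/Kl kidneys (n = 3) and 4.24 ± 1.66 TPM in female controls (SD, n = 4), with a limma adjusted p of 0.0852. Ttr averaged 2.12 ± 1.39 TPM in all female Kl/Kl kidneys and 6.92 ± 2.70 TPM in female controls (SD, n = 4 each), Kl/Kl replicate 3 being the lowest at 0.0907 TPM. Its log2(TPM + 1) difference was −1.45 (SE 0.47, limma adjusted p 0.745) with all libraries. Without Kl/Kl replicate 3 it was −0.997 (SE 0.25, limma adjusted p 0.110).

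The genes whose pattern was most like that of each member were sought among 8696 genes over the 14 libraries without S5 and S15, by Pearson r of log2(TPM + 1) centred on the mean of each table. For Lrg1 these were Prob1 (r = 0.958), Ufd1 (0.956) and Arih2 (0.952). For Fga they were Ibtk (0.974), Fbxw8 (0.969) and the STAT3 target kinase Pim1 (0.968). For Fgg they were Casc3 (0.984), Qsox1 (0.980) and Terf2 (0.980), and for Socs3 they were Sox4 (0.969), Ilvbl (0.964) and Ctnnd1 (0.958). All these values rest in part on Kl/Kl males 1 and 4, the libraries with the highest levels of the members.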

How the data were processed

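The authors deposited TPM values in 2 tables, 1 per sex, each with 8 libraries and Ensembl gene IDs, symbols and coordinates per the file headers. Per the submitters' processing notes, the build is mm39 and the program Partek; the aligner, counting method and strand use were not given in the sources used here. Each column sums to 285327 (males) or 265288 (females), and the lowest values equal 0.0001 read over the gene's genomic span. Reads were estimated from that offset; they are not counts, so no counting interval is given. 0 further sample columns were found.

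Groups came from the labels. Within each table, log2(TPM + 1) was tested with limma, for genes averaging 1 TPM or more, 3.58.1 (R 4.3.3; lmFit, eBayes with trend; two-sided, Benjamini-Hochberg over all genes tested, threshold 0.05). The fit was tested on simulated data. Single values were tested by exact permutation over libraries (SciPy 1.17.1). Exon lengths came from GENCODE annotation of GRCm38, used as lengths only. From each gene list, up to 4 called genes by size of change, or otherwise the 2 most abundant, are named. The members and all lists were chosen with earlier results of these data known. Alternatives covered the pseudocount, the filter, scaling, array weights, age, a replicate block, voom on estimated reads and each library left out.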

Additional observations from a re-analysis of the deposited data

Results flagged for a closer look

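Single libraries stood far from the rest of their group for 7 values, by the gap to the nearest library relative to the range of the group. The rule was applied to 22 groups with at least 10 estimated reads in a library. Groups of different genes share the same libraries, so the 7 values are a description and no chance rate is given. Fgb had 1.52 TPM in male Kl/Kl replicate 1, with the other male Kl/Kl libraries between 0.0418 and 0.117 TPM. Saa1 had 0.834 TPM in male Kl/Kl replicate 1, with the others between 0.0137 and 0.228 TPM, and 0.359 TPM in female Kl/Kl replicate 4, with the others between 0.0136 and 0.0595 TPM. Saa3 had 1.54 TPM, Hp 153 TPM and Orm1 3.84 TPM in female Kl/Kl replicate 3, where the other female Kl/Kl libraries reached at most 0.0133, 0.706 and 0.0338 TPM for these genes. Socs3 had 3.24 TPM in female control replicate 1, with the other female controls between 0.560 and 0.813 TPM.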

How the results depend on the processing

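In males 1 member was called; this count was 0 with a filter at 0.1 TPM, with no filter, in a 4-group model of all 16 libraries, and in 2 fits added after the data were seen that left out male control replicate 3 (pseudocount 0.1, or voom, with a filter at 0.1 TPM), and ran from 0 to 1 with single libraries left out. All genes called in males numbered 500 (316 higher and 184 lower). They were 908 with pseudocount and filter at 0.1, 1154 after median-of-ratios scaling (562 higher, 592 lower), 2829 with array weights (1375 higher, 1454 lower), 1502 with voom, and 1236 and 2375 in the 2 added fits, with a range of 185 to 909 with single libraries left out; without male control replicate 3 they were 273 higher and 636 lower. In females members called were 0, and 1 (Lrg1) with array weights. All genes called in females were 3, and 8 with no filter, 0 with pseudocount and filter at 0.1, 327 with array weights, 0 with voom, 7 in the 4-group model, 0 and 32 in 2 added fits without Kl/Kl replicate 3, and 2 to 9 with single libraries left out. Replicate numbers did not pair the samples (same-number correlations of −0.18 to 0.29, with 1 of the 4 female pairs and 0 of the 3 male pairs best with its own number). With the replicate block, all genes called were 227 in males and 0 in females, and Socs3 in males had an adjusted p of 0.0273 from limma. In females the difference of Fga turned from 0.01 to −0.48 with pseudocount 0.1 (with either filter), −0.0404 after median-of-ratios scaling and −0.61 with voom, and ran from −0.35 to 0.60 with single libraries left out; the cause was not tested. The female difference of Fgb was 0.04 and that of Orm1 0.54; with single libraries left out they ran from −0.00272 to 0.0760 and from −0.0298 to 0.729, negative without Kl/Kl replicate 4 for Fgb and without Kl/Kl replicate 3 for Orm1. Over 20 alternatives the male Socs3 difference kept its sign and stayed past the threshold in 9, while Lrg1 and Fga in males (20) and Fgg in males (19, as it fell below the filter without Kl/Kl replicate 1) kept theirs and stayed short of it. The number of members with a different change in the sexes was 0 in every alternative run. Estimated reads under about 10 per library limit Saa1, Saa3, Orm1 and Fgb.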
